A study of Mus musculus with 6 samples.

Results

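The genes described here are the 10 CDK inhibitors and D-type cyclins of the mouse genome named by symbol: Cdkn1a, Cdkn1b and Cdkn1c of the Cip/Kip family, Cdkn2a, Cdkn2b, Cdkn2c and Cdkn2d of the INK4 family, and the cyclins Ccnd1, Ccnd2 and Ccnd3. They were taken by symbol from a table of 55367 gene symbols, and all 10 were found there. Messenger RNA was measured in a mouse fibroblastic reticular cell (FRC) line, the stromal cell type that builds the scaffold of lymph nodes, in 6 libraries. The first pair came from FRCs given medium conditioned by 4T1 cells, a metastatic mouse mammary carcinoma line. A second pair came from FRCs given medium of 67NR cells, a non-metastatic line of the same tumour origin, and the third pair, called control here, from FRCs given medium that FRCs themselves had conditioned. All cells were treated for 96 h, and medium was renewed every 48 h. Each medium had been conditioned for 24 h in plain RPMI and then received 2% serum. Whether the pair of libraries of a medium came from separate cultures is not stated, so the p-values measure the spread between these libraries, which may be technical. FRCs in fresh medium were not analysed here, so each comparison sets one conditioned medium against another.

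D-type cyclins are the part of the cell cycle engine that answers to growth signals. They bind and activate the kinases CDK4 and CDK6, which phosphorylate the retinoblastoma protein and so release E2F factors, and E2F factors switch on the genes of DNA replication. INK4 proteins bind CDK4 and CDK6 and keep D-type cyclins off them, while Cip/Kip proteins bind whole cyclin-CDK complexes and block CDK2 above all. In fibroblasts, high Cdkn2a and Cdkn1a are known from senescence, and high Cdkn1b from quiescence.

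Total counts were 14471244 and 18214700 in the 4T1 libraries, 21797578 and 20886242 in the 67NR libraries, and 19262738 and 13581510 in the control libraries. The lowest correlation of log2 CPM within a medium was 0.992, and the highest between media was 0.979. Of 13 fibroblast and FRC markers, Thy1, Ccl19 and Ccl21a had no count in any library, and Icam1 had 1 to 7 counts. Whether the line lacked these defining markers or the counting missed them was not tested. Des lay at 0.892 to 1.56 CPM (counts scaled to a common library size) and Col1a2 at 5.2 to 15.7 CPM over the 6 libraries, far below Col1a1 at 6717 to 15613 CPM, while Pdpn, Pdgfra, Pdgfrb, Col3a1, Vcam1 and Ltbr had at least 33 CPM in every library. The present markers moved with medium too: of the 9 tested, 4 were higher and 4 lower in 4T1 medium and 3 were higher and 2 lower in 67NR medium than in control medium. Vcam1 had 608 and 647 CPM in 4T1 medium, 209 and 207 CPM in 67NR medium, and 212 and 200 CPM in control medium. The 9 leukocyte markers summed to at most 0.203 CPM in any library. The 9 epithelial markers, with Epcam, Cldn4 and Esrp1 at 0, summed to 1.58 to 2.23 CPM in 4T1 medium, 5.74 to 6.02 CPM in 67NR medium and 7.58 to 8.83 CPM in control medium. The 7 endothelial markers, with Prox1 at 0, summed to 34.2 to 35.7 CPM in 4T1 medium, 23.6 to 26.6 CPM in 67NR medium and 14 to 16.1 CPM in control medium. Most of each sum was Emcn, which had 11.7 and 12.6 CPM in the control libraries. A set of 12 transcripts that follow RNA quality, mitochondrial RNAs with Malat1 and Neat1, summed to 19541 and 22188 CPM in 4T1 medium, 18049 and 21176 CPM in 67NR medium, and 11669 and 16641 CPM in control medium. Of its 11 tested members 7 passed as higher in 4T1 medium and 8 as higher in 67NR medium than in control medium. The part of these markers in the results that follow was not tested. In bulk RNA, fewer cells of a type and less RNA per cell cannot be told apart, so that a lower level of any gene below can be either.

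Promoters are shown for 4 of the inhibitors: Cdkn1a, which was higher in 4T1 medium, Cdkn1b, which moved in opposite directions in the tumour media, and the neighbours Cdkn2a and Cdkn2b, which fell side by side in 4T1 medium. Each runs 5′ to 3′ on the gene's own strand from 250 bases before the start of transcription to 50 after it, as given by RefSeq for GRCm38.p6. Capitals mark letters found by a search of both strands for 4 motifs. Cdkn2a has 2 starts, the upstream one belonging to the transcript of p19ARF and the downstream one to that of p16INK4a.
Cdkn1a, upstream start, chr17:29090729-29091028, plus strand: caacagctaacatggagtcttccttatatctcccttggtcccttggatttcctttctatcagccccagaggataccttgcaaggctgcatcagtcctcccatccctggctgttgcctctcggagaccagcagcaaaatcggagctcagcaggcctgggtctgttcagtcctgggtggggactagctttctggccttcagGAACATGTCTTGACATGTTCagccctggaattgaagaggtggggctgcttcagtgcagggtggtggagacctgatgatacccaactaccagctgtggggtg
Cdkn1b, chr6:134920151-134920450, plus strand: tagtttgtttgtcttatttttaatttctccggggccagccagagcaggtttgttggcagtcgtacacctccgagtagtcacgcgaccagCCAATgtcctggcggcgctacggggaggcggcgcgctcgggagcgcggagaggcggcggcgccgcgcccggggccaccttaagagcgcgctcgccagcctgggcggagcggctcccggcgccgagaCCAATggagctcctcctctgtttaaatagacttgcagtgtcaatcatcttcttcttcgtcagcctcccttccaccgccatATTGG
Cdkn2a, upstream start, chr4:89294570-89294869, minus strand: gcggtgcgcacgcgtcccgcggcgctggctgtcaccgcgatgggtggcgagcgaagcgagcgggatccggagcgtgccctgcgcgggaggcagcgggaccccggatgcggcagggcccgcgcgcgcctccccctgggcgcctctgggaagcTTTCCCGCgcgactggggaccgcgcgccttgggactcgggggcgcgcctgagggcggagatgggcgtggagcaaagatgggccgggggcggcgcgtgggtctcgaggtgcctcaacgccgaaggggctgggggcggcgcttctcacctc
Cdkn2a, downstream start, chr4:89282143-89282442, minus strand: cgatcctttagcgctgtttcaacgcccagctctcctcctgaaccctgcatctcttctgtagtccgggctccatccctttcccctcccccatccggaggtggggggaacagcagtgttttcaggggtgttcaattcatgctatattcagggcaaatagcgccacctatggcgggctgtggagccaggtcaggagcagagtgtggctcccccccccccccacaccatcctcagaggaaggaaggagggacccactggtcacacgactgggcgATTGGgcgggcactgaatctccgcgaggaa
Cdkn2b, chr4:89310983-89311282, minus strand: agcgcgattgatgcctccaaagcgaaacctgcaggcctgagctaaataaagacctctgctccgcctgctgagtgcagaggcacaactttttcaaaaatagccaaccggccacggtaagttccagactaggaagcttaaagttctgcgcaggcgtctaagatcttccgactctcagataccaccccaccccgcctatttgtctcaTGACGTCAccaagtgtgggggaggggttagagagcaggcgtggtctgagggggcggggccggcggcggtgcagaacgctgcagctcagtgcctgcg

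In the Cdkn1a sequence the capitals are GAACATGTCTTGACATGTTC, whose first base lies at -51 from the start. They match the p53 consensus element over 20 bases without a spacer, with at most 1 mismatch outside its fixed C and G bases, a tolerance set after the sequence had been read. The other Cdkn1a start in the table, at chr17:29093519-29093818, held none of the 4 motifs. Positions count the first transcribed base as 0. Such a match was present in 0.067% of the 32851 promoters of the table. The capitals of the upstream Cdkn2a start, TTTCCCGC at -99, are one of 4 spellings searched as an E2F site (TTTCGCGC, TTTGGCGC, TTTCCCGC and TTTGCCGC), found in 2.26% of promoters. Cdkn2b holds TGACGTCA, the cyclic AMP response element that CREB factors bind, at -46, a word found in 1.79% of promoters. Cdkn1b holds CCAAT, the box bound by NF-Y, at 3 places, with first bases at -161, -35 and 45, the last on the other strand. The downstream Cdkn2a start holds it once, on the other strand at 20, and 37.4% of all promoters hold it. Each match is a description of letters in this window, and no binding was measured. The table had entries for 7 of the 10 genes.

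In FRCs given 4T1 medium, 8 of the 9 tested genes differed from control medium, against a background of 39.1% of all genes, and they did so in both directions. Cdkn1a and Ccnd3 were higher, while Cdkn1b, Cdkn2a, Cdkn2b, Cdkn2c, Ccnd1 and Ccnd2 were lower. That is 2 higher against a background of 19.9% of all 15055 tested genes, and 6 lower against a background of 19.2%. Without overlap between the 2 libraries of each medium stood 8 of the 9, against 67.4% of all genes. In 67NR medium 1 gene was higher than in control medium, Cdkn1b, against a background of 13% of all genes, and 4 were lower, Cdkn2c, Cdkn2d, Ccnd1 and Ccnd3, against 14.6%. No overlap was seen for 7 of the 9, against 67.6% of all genes. Set directly against 67NR medium, 4T1 medium had 3 higher genes, Cdkn1a, Cdkn2d and Ccnd3, against a background of 23.5%, and 5 lower ones, Cdkn1b, Cdkn2a, Cdkn2b, Cdkn2c and Ccnd2, against 19.9%. Here 8 of the 9 did not overlap, against 70.1% of all genes. Both comparisons with control medium use the same control libraries. All tests are edgeR quasi-likelihood F tests with Benjamini-Hochberg adjustment over all tested genes and a threshold of 0.05.

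**Figure D1:**
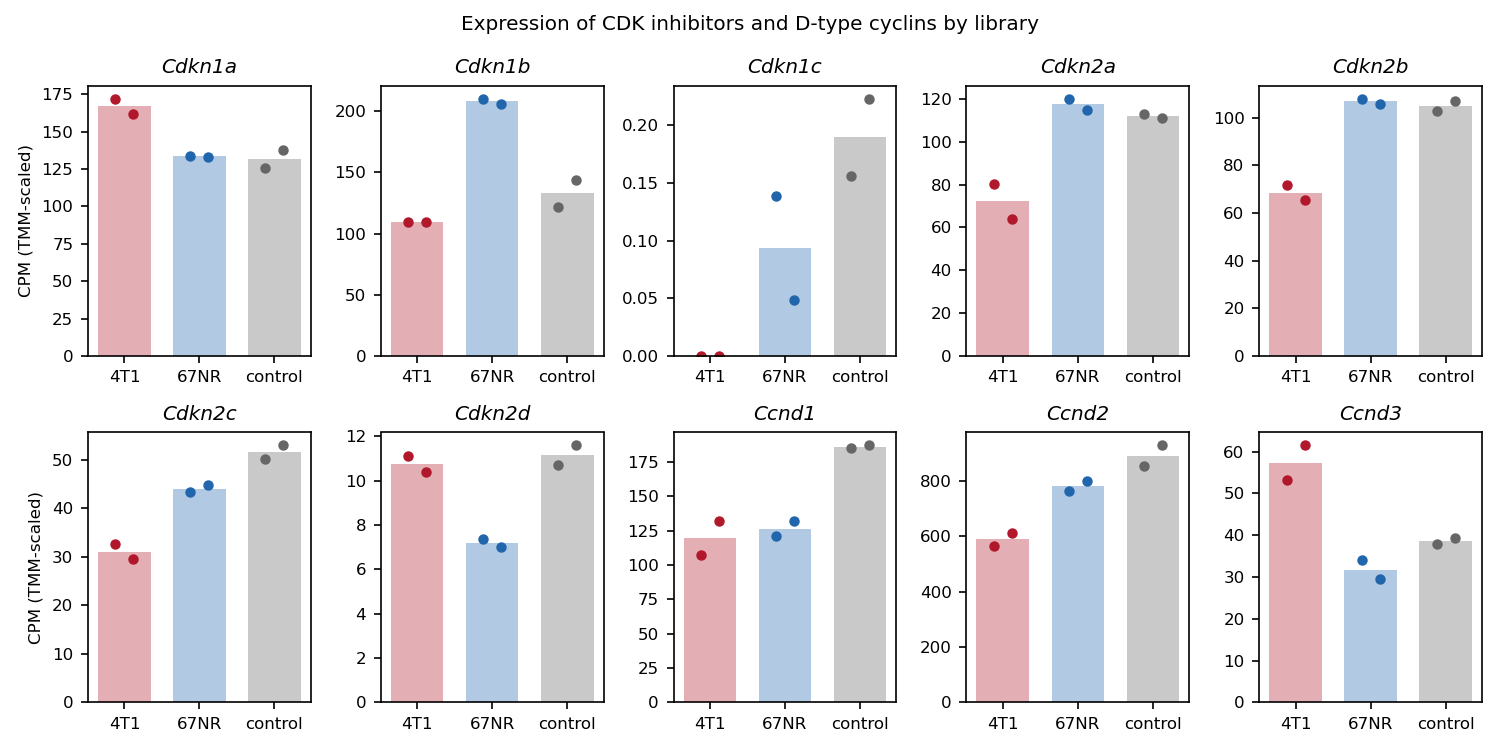
Level of each gene in CPM, on an axis from 0, in the 2 libraries (points) of each medium, with bars at their mean. Cdkn1b stands at 206 and 210 CPM in 67NR medium and at 109 CPM in both 4T1 libraries, while the Ccnd3 points of 4T1 medium lie above those of the other media.

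Among the Cip/Kip inhibitors, Cdkn1a encodes p21, the inhibitor through which p53 halts the cycle after damage. It lies on chromosome 17 at 29090976 to 29100727 of GRCm38, on the plus strand. Its level was 172 and 162 CPM in the 4T1 libraries, 134 and 133 CPM in the 67NR libraries, and 126 and 138 CPM in the control libraries. Both 4T1 libraries lay above the other 4, and the 67NR values lay between those of the control libraries. The log2 fold change of 4T1 over control medium was 0.34 (SE 0.07, edgeR quasi-likelihood adjusted p = 0.00174), and that of 4T1 over 67NR medium was 0.32 (SE 0.07, adjusted p = 0.00181). For 67NR over control medium it was 0.01, with a 95% interval of -0.13 to 0.16 (adjusted p = 0.91).

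Cdkn1b, on the plus strand of chromosome 6 at 134920401 to 134925513, encodes p27, which accumulates in resting cells and is mostly controlled by its breakdown. It was present at 109 CPM in both 4T1 libraries, at 210 and 206 CPM in the 67NR libraries, and at 122 and 144 CPM in the control libraries. The 3 media did not overlap, with 67NR medium highest and 4T1 medium lowest. Relative to control medium, Cdkn1b rose by 0.65 on the log2 scale in 67NR medium (SE 0.08, edgeR adjusted p = 4.48e-05) and fell by 0.28 in 4T1 medium (SE 0.08, adjusted p = 0.0127). The difference between the tumour media, 4T1 over 67NR, was -0.93 (SE 0.08, adjusted p = 6.87e-07), the lowest log2 fold change of any of the 9 genes in any comparison. The fall in 4T1 medium rested on control replicate 2: without it the log2 fold change was -0.16, with an edgeR adjusted p of 0.182, in a range of 0.000793 to 1 over the alternatives.

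Cdkn1c, which encodes p57, an imprinted inhibitor of embryonic and resting cells, was close to absent. It lies on the minus strand of chromosome 7 at 143458339 to 143461050. It had 0 and 0 counts in the 4T1 libraries, 3 and 1 in the 67NR libraries, and 3 and 3 in the control libraries, and was not tested. Summed over each pair, 0 counts in 4T1 medium allow up to 0.0905 CPM, the worth of 3 counts, while the 4 counts in 67NR medium stand for 0.0949 CPM and the 6 in control medium for 0.183 CPM. The exact 95% Poisson intervals, which like this limit cover counting error only, ran from 0 to 0.111 CPM in 4T1 medium. They ran from 0.0259 to 0.243 CPM in 67NR medium and from 0.0673 to 0.399 CPM in control medium. The control value lay above both limits of 4T1 medium, 0.0905 and 0.111 CPM, and the 67NR value lay between these. The intervals of 67NR and control medium reached below both limits, and the difference was not tested.

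Of the INK4 inhibitors, Cdkn2a lies on the minus strand of chromosome 4 at 89274471 to 89294653. Its 2 annotated transcripts encode p16INK4a, which binds CDK4 and CDK6, and p19ARF, which stabilises p53 through Mdm2 and does not bind these kinases. The counts join both transcripts, so the values cannot say which was present. The level was 80.4 and 63.9 CPM in the 4T1 libraries, 120 and 115 CPM in the 67NR libraries, and 113 and 111 CPM in the control libraries. Both 4T1 libraries lay below the other 4, and they differed more from each other than the libraries of the other media did. On the log2 scale Cdkn2a fell by 0.64 in 4T1 medium relative to control medium (SE 0.09, edgeR adjusted p = 0.000126), and was at -0.71 in 4T1 over 67NR medium (SE 0.09, adjusted p = 3.76e-05). In 67NR over control medium it was 0.07, with a 95% interval of -0.13 to 0.26 (adjusted p = 0.616).

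Cdkn2b encodes p15, an INK4 protein known as a target of TGF-beta. It lies on the minus strand of chromosome 4 at 89306299 to 89311039, with its 3′ end 11645 bases upstream of the start of Cdkn2a. It had 71.8 and 65.3 CPM in the 4T1 libraries, 108 and 106 CPM in the 67NR libraries, and 103 and 107 CPM in the control libraries. As for its neighbour, both 4T1 libraries were the lowest. The other media overlapped, which they did not for Cdkn2a. It fell by 0.61 in 4T1 medium relative to control medium (log2, SE 0.07, edgeR adjusted p = 1.9e-05), and 4T1 over 67NR medium gave -0.65 (SE 0.07, adjusted p = 8.37e-06). The log2 fold change of 67NR over control medium was 0.03, with an interval of -0.12 to 0.18 (adjusted p = 0.782). Per kb of exon, the level of Cdkn2a lay between 1.16 and 1.33 times that of Cdkn2b in all 6 libraries. Mtap, the next gene of this locus and an enzyme of methionine salvage, had 163 ± 0.927 CPM in 4T1 medium, 149 ± 0.285 CPM in 67NR medium and 187 ± 7.43 CPM in control medium (SD, n = 2 each). It fell by 0.20 in 4T1 medium (edgeR adjusted p = 0.0232) and by 0.33 in 67NR medium (adjusted p = 0.0017) on the log2 scale, and Dmrta1 on the other side had no count in any library.

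Cdkn2c encodes p18, an INK4 protein that rises in differentiating cells, and lies on the minus strand of chromosome 4 at 109660876 to 109667189. The 4T1 libraries had 32.6 and 29.5 CPM, the 67NR libraries 43.4 and 44.8 CPM, and the control libraries 50.1 and 53 CPM. The media formed 3 separate steps, with 4T1 medium lowest and control medium highest. The fall in 4T1 medium relative to control medium was 0.73 (log2, SE 0.08, edgeR adjusted p = 1.32e-05), and 4T1 over 67NR medium was at -0.51 (SE 0.08, adjusted p = 0.000217). The fall of 0.22 in 67NR medium (SE 0.08, adjusted p = 0.0496) was at the threshold and lost its call under 9 of 17 alternatives, among them leaving out any 1 library of either medium, with adjusted p over all alternatives between 0.0138 and 1.

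Cdkn2d encodes p19INK4d, unrelated to p19ARF, and lies on the minus strand of chromosome 9 at 21288410 to 21291407. It had 11.1 and 10.4 CPM in the 4T1 libraries, 7.37 and 7.01 CPM in the 67NR libraries, and 10.7 and 11.6 CPM in the control libraries. Here 67NR medium stood apart, below the other media, which overlapped. Relative to control medium it fell by 0.63 in 67NR medium (log2, SE 0.13, edgeR adjusted p = 0.00268), and 4T1 over 67NR medium gave 0.58 (SE 0.13, adjusted p = 0.00246). In 4T1 over control medium the log2 fold change was -0.05, with an interval of -0.32 to 0.22 (adjusted p = 0.788).

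Among the D-type cyclins, Ccnd1 encodes cyclin D1, the member most tied to growth factor signals in fibroblasts, and lies on the minus strand of chromosome 7 at 144929931 to 144939925. It had 107 and 132 CPM in the 4T1 libraries, 121 and 132 CPM in the 67NR libraries, and 185 and 187 CPM in the control libraries. All 4 libraries of tumour media lay below the control libraries, and the tumour media overlapped. Ccnd1 fell by 0.64 in 4T1 medium (log2, SE 0.09, edgeR adjusted p = 9.09e-05) and by 0.55 in 67NR medium (SE 0.09, adjusted p = 0.000466) relative to the same control libraries. The log2 difference of 4T1 over 67NR medium was -0.08, with an interval of -0.28 to 0.11 (adjusted p = 0.48). That difference depended on the 4T1 libraries: it was 0.06 (edgeR adjusted p = 0.527) without replicate 1 and -0.25 (adjusted p = 0.0091) without replicate 2, with adjusted p between 0.0091 and 1 over the alternatives.

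Ccnd2 encodes cyclin D2, which is known to respond to growth factors and to MYC. It lies on the minus strand of chromosome 6 at 127125162 to 127152193. The 4T1 libraries had 566 and 612 CPM, the 67NR libraries 764 and 799 CPM, and the control libraries 853 and 928 CPM. The media again formed 3 separate steps in the order seen for Cdkn2c. It fell by 0.60 in 4T1 medium relative to control medium (log2, SE 0.07, edgeR adjusted p = 1.99e-05), and 4T1 over 67NR medium was at -0.41 (SE 0.07, adjusted p = 0.000377). For 67NR over control medium the log2 fold change was -0.19, with an interval of -0.34 to -0.04 (adjusted p = 0.061). It passed the threshold under 7 of 17 alternatives, among them the fit with the replicate number as a block (adjusted p = 0.0211), with adjusted p between 0.0141 and 1 over all of them.

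Ccnd3 encodes cyclin D3, best known from lymphocytes and differentiating muscle, and lies on the plus strand of chromosome 17 at 47505051 to 47599691. It had 53.1 and 61.5 CPM in the 4T1 libraries, 34 and 29.5 CPM in the 67NR libraries, and 37.9 and 39.3 CPM in the control libraries. It was the one D-type cyclin that was higher in 4T1 medium, and all 3 media were apart. The rise in 4T1 medium relative to control medium was 0.57 (log2, SE 0.09, edgeR adjusted p = 0.000356), and 4T1 over 67NR medium gave 0.85 (SE 0.09, adjusted p = 8.46e-06). It fell by 0.28 in 67NR medium relative to control medium (SE 0.10, adjusted p = 0.047), a call lost under 8 of 17 alternatives, among them leaving out any 1 library of either medium, with adjusted p over all of them between 0.0127 and 1. On the opposite strand Ccnd3 shares 361 exon bases, 4.11% of its own, with Bysl, a gene of ribosome assembly, and the strand setting of the counting is not given in the sources used here. Bysl had 43.4 and 40.4 CPM in the 4T1 libraries, 26 and 24.7 CPM in the 67NR libraries, and 37.4 and 39.7 CPM in the control libraries, with log2 fold changes of 0.12 for 4T1 over control medium (edgeR adjusted p = 0.263), -0.60 for 67NR over control medium (adjusted p = 0.000149) and 0.72 for 4T1 over 67NR medium (adjusted p = 1.17e-05). Bysl was thus lower in 67NR medium, as Ccnd3 was, and the part of reads from the shared bases in the Ccnd3 values was not tested.

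**Figure D2:**
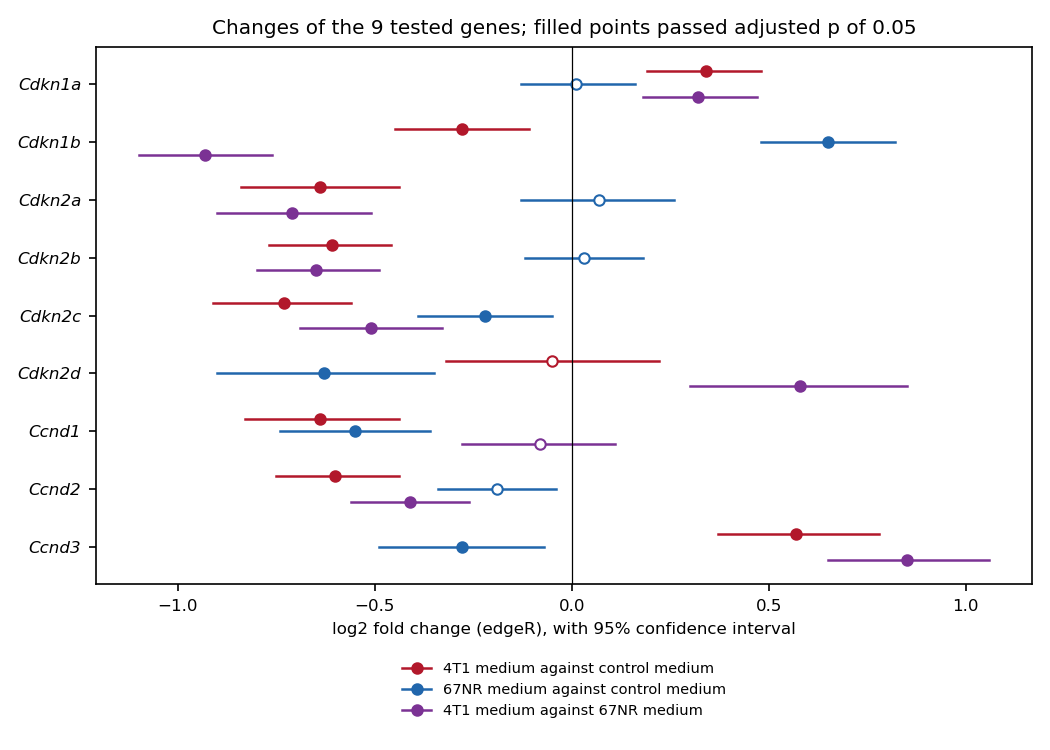
Log2 fold change of the 9 tested genes (points) with 95% confidence intervals (lines) in the 3 comparisons, filled where the edgeR adjusted p was under 0.05. Cdkn1b lies at -0.28, 0.65 and -0.93 in 4T1 over control, 67NR over control and 4T1 over 67NR medium, and Ccnd3 at 0.57, -0.28 and 0.85.

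No log2 fold change of the 9 genes was beyond 0.85 upward or -0.93 downward. Against a minimum change of 1.5-fold, tested with glmTreat of edgeR, no gene kept its call in either comparison with control medium. In 4T1 over 67NR medium Cdkn1b as lower and Ccnd3 as higher kept theirs. Ccnd1 shares 1100 exon bases, 23.4% of its own, with LTO1 on the opposite strand, whose log2 fold changes were -0.03 in 4T1 over control medium, 0.09 in 67NR over control medium and -0.12 in 4T1 over 67NR medium, none past the threshold. The longest stretch of identical bases between exons of any pair of the 10 genes was 23 bases, between Cdkn1a and Cdkn1b and between Cdkn2a and Cdkn2b.

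Levels of different genes were compared as CPM per kb of exon in the annotation. This length joins every annotated exon of a gene: 8775 bases over 21 transcripts for Ccnd3, 9409 over 8 for Ccnd2 and 1390 over 1 for Cdkn2b. A gene whose messages are shorter than this length is placed too low. Which transcripts were present was not tested, and every level per kb rests on this length. In 4T1 medium the order began with Ccnd2 at 62.6 ± 3.49 and Cdkn2a at 61.5 ± 9.94 CPM per kb (SD, n = 2 here and below), which overlapped. Cdkn2b at 49.3 ± 3.29 and Cdkn1a at 47 ± 2 CPM per kb followed, and these also overlapped. Below them came Ccnd1 at 25.3 ± 3.74 and Cdkn1b at 23.9 ± 0.11 CPM per kb, overlapping again, then Cdkn2c at 11.6 ± 0.819, Cdkn2d at 6.83 ± 0.306 and Ccnd3 at 6.53 ± 0.684 CPM per kb, of which the last pair overlapped. The 9 tested genes thus fell into 5 steps in this medium, with Cdkn1b level with Ccnd1. In 67NR medium no neighbours in the order overlapped: Cdkn2a led at 100 ± 3.31 CPM per kb, then Ccnd2 at 83 ± 2.66, Cdkn2b at 77 ± 0.92, Cdkn1b at 45.6 ± 0.612 and Cdkn1a at 37.6 ± 0.271 CPM per kb. Ccnd1 at 26.9 ± 1.63, Cdkn2c at 16.4 ± 0.358, Cdkn2d at 4.57 ± 0.161 and Ccnd3 at 3.62 ± 0.364 CPM per kb closed it. This was the medium in which Cdkn1b outranked both Cdkn1a and Ccnd1. In control medium Cdkn2a at 95.5 ± 1.22 and Ccnd2 at 94.6 ± 5.6 CPM per kb overlapped, and the others were apart from their neighbours, with Cdkn2b at 75.5 ± 2.4, Ccnd1 at 39.4 ± 0.32, Cdkn1a at 37.3 ± 2.37 and Cdkn1b at 29.2 ± 3.46 CPM per kb. Cdkn2c at 19.2 ± 0.761, Cdkn2d at 7.08 ± 0.404 and Ccnd3 at 4.4 ± 0.11 CPM per kb ended the list. Cdkn1b thus stood above Cdkn1a in 67NR medium, and below it in 4T1 medium and in control medium. The level of Cdkn1b per kb was 0.493 and 0.526 times that of Cdkn1a in the 4T1 libraries, 1.22 and 1.21 times in the 67NR libraries, and 0.751 and 0.812 times in the control libraries.

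Summed per kb, the D-type cyclins reached 88.8 and 100 CPM per kb in 4T1 medium, 111 and 116 in 67NR medium, and 134 and 143 in control medium. Ccnd2 made up most of this sum in every library, with 67.7 and 65.1% in 4T1 medium, 73.3 and 73% in 67NR medium, and 67.6 and 69.1% in control medium. Ccnd3 made up 6.81 and 7.01% in 4T1 medium, 3.5 and 2.89% in 67NR medium, and 3.22 and 3.14% in control medium. Ccnd1 made up 25.5 and 27.9% in 4T1 medium, 23.2 and 24.1% in 67NR medium, and 29.2 and 27.8% in control medium. Total D-type cyclin message was thus lowest in 4T1 medium, which also held the highest share of Ccnd3.

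The INK4 genes together had 139 and 119 CPM per kb in 4T1 medium, 201 and 195 in 67NR medium, and 196 and 199 in control medium. The Cip/Kip genes together had 72.3 and 69.6 CPM per kb in 4T1 medium, 83.9 and 82.6 in 67NR medium, and 62.4 and 70.7 in control medium. The ratio of Cip/Kip to INK4 message was 0.518 and 0.584 in 4T1 medium, 0.417 and 0.423 in 67NR medium, and 0.319 and 0.355 in control medium. It was higher in both tumour media than in control medium without overlap. In 4T1 medium the INK4 sum was the lowest of the 3 media, and in 67NR medium the Cip/Kip sum was the highest. The INK4 sum includes Cdkn2a, whose counts join p16INK4a and p19ARF, so it is a sum over genes and not over messages of INK4 proteins alone. These sums and ratios were not tested.

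**Figure D3:**
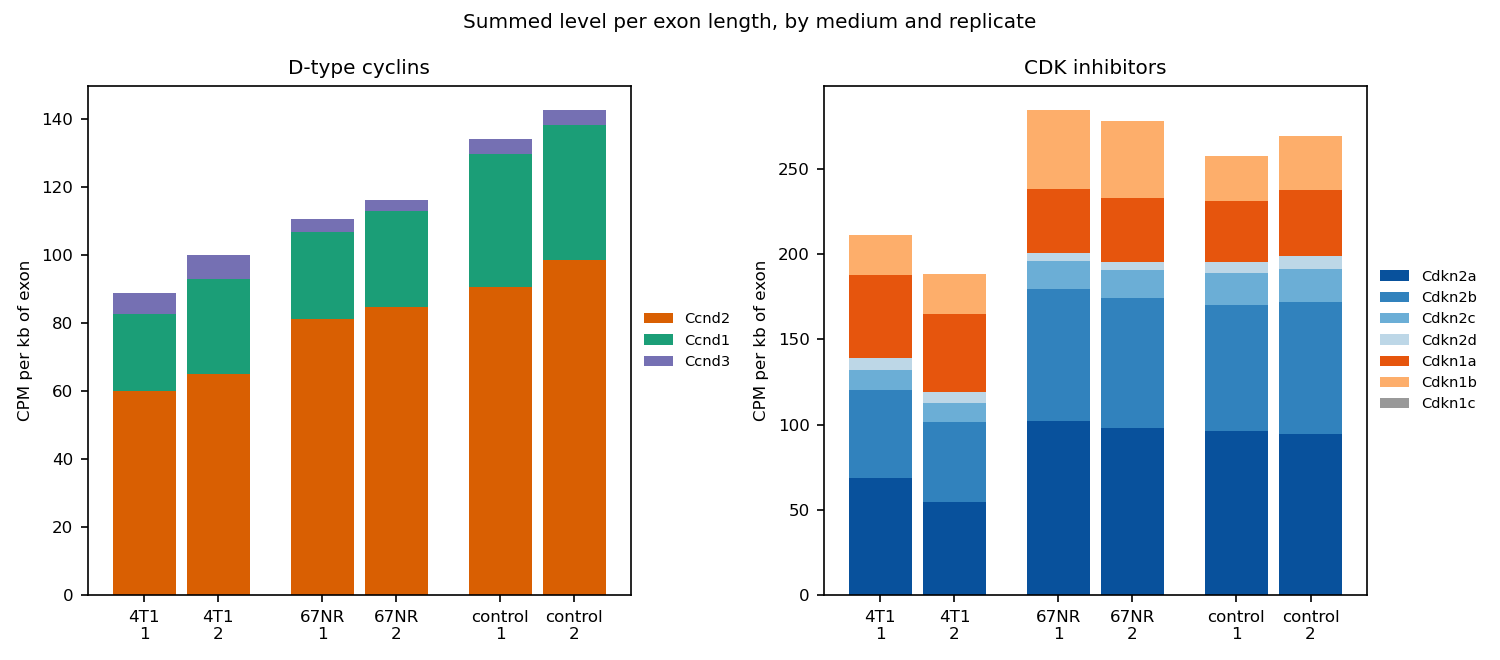
Summed level in CPM per kb of exon of the D-type cyclins (left) and of the CDK inhibitors (right) in each library, with the part of each gene in colour. The cyclin columns are lowest in 4T1 medium, at 88.8 and 100 CPM per kb, and the inhibitor columns are too, at 212 and 189 CPM per kb.

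The genes that follow these regulators in the cycle were lower in both tumour media. All 28 mitosis genes fell in both tumour media relative to control medium, with a median log2 fold change of -0.85 in 4T1 medium and -2.28 in 67NR medium, and all 28 were higher in 4T1 than in 67NR medium, with a median of 1.40. Their summed level was 700 and 917 CPM in 4T1 medium, 298 and 312 CPM in 67NR medium, and 1411 and 1485 CPM in control medium. Of 34 S phase and replication genes, 30 fell in 4T1 medium (median -0.69) and 33 in 67NR medium (median -1.26), and 22 were higher in 4T1 than in 67NR medium (median 0.56). The 9 tested CDK inhibitors and D-type cyclins had medians of -0.60 in 4T1 over control medium, -0.19 in 67NR over control medium and -0.41 in 4T1 over 67NR medium, and all 15055 genes had 0.01, 0.00 and 0.03 in the same order. These medians join inhibitors and cyclins that moved both ways. The log2 fold changes of the 9 genes ran from -0.73 to 0.57 in 4T1 medium and from -0.63 to 0.65 in 67NR medium, while those of the mitosis genes ran from -1.27 to -0.53 in 4T1 medium and from -2.70 to -1.67 in 67NR medium.

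**Figure D4:**
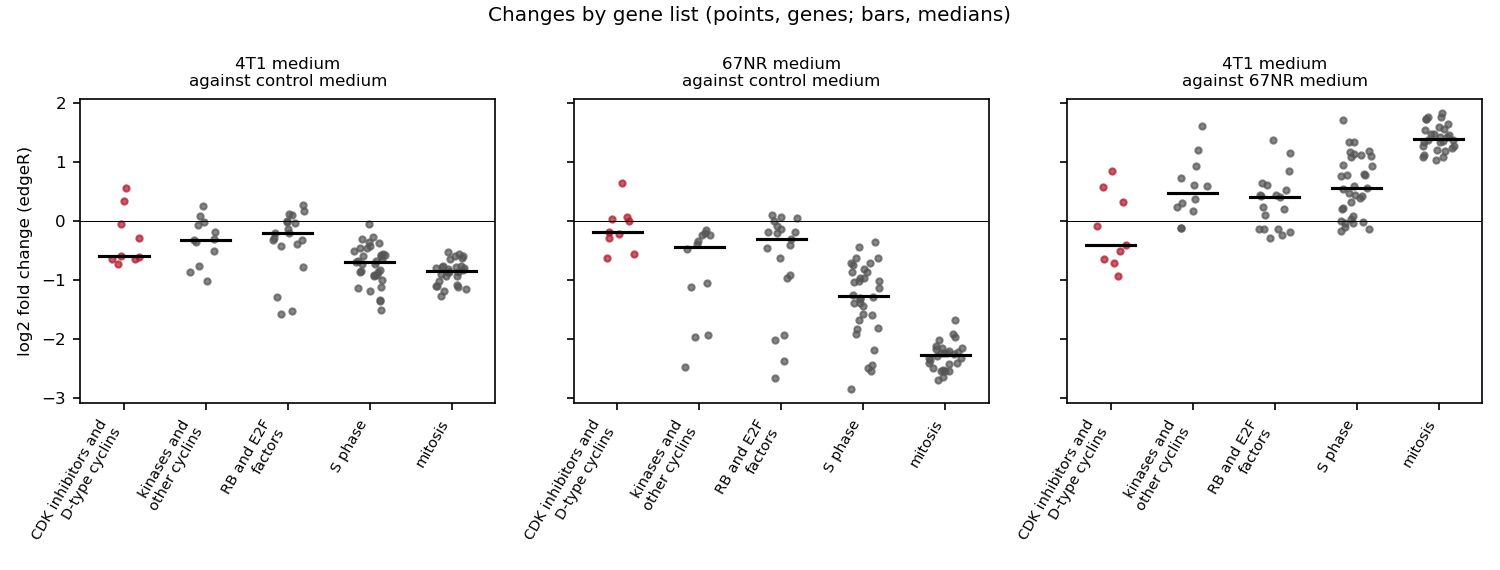
Log2 fold change of each gene (points) and the median (bars) for 5 gene lists in the 3 comparisons. The mitosis genes lie at medians of -0.85, -2.28 and 1.40 from left to right, while the CDK inhibitors and D-type cyclins lie on both sides of 0 in each panel.

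Of 12 kinases and other cyclins of G1 and S phase, 1 was higher and 7 were lower in 4T1 medium, and 0 were higher and 10 lower in 67NR medium, relative to control medium. The counts of this list and of those below stand against the shares of all tested genes. These were 19.9% higher and 19.2% lower in 4T1 medium, and 13% higher and 14.6% lower in 67NR medium. Cdk4, a partner of the D-type cyclins, had 283 ± 14 CPM in 4T1 medium, 307 ± 14.2 CPM in 67NR medium and 354 ± 1.77 CPM in control medium (SD, n = 2 each, as for the genes that follow). It fell by 0.32 in 4T1 medium (log2, edgeR adjusted p = 0.0016) and by 0.21 in 67NR medium (adjusted p = 0.0309). Cdk6, the other partner, had 94.6 ± 9.94 CPM in 4T1 medium, 62.5 ± 5.46 CPM in 67NR medium and 79.1 ± 0.973 CPM in control medium. It rose by 0.26 in 4T1 medium (adjusted p = 0.0296) and fell by 0.34 in 67NR medium (adjusted p = 0.0108). Ccna2, the cyclin of S phase and entry into mitosis, fell by 0.87 in 4T1 medium (adjusted p = 3e-05) and by 2.48 in 67NR medium (adjusted p = 3.58e-08). Ccne2, a partner of CDK2, fell by 1.01 in 4T1 medium (adjusted p = 0.000695) and by 1.94 in 67NR medium (adjusted p = 8.87e-06). Cdk4 and Cdk6 were chosen for their role after their values had been seen, and the same holds for Skp2 in 4T1 medium, Rb1, E2f1 and Trp53 below.

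Of 19 RB and E2F factors, 1 was higher and 7 were lower in 4T1 medium, and 0 were higher and 7 lower in 67NR medium. Those that fell were led by members that are themselves made in proliferating cells. E2f7, a repressor of E2F targets, fell by 1.57 in 4T1 medium (edgeR adjusted p = 1.66e-05) and by 2.01 in 67NR medium (adjusted p = 3.81e-06), and Mybl2, a factor of the late cycle, fell by 1.52 in 4T1 medium (adjusted p = 4.36e-06) and fell by 2.38 in 67NR medium (adjusted p = 3.02e-07). Foxm1, which drives mitosis genes, had 26.4 ± 4.52 CPM in 4T1 medium, 11.9 ± 2.34 CPM in 67NR medium and 45.7 ± 0.75 CPM in control medium. Rb1, the retinoblastoma gene, fell by 0.32 in 4T1 medium (adjusted p = 0.0255) and was at -0.19 in 67NR medium (adjusted p = 0.197). E2f1 fell by 0.43 in 4T1 medium (adjusted p = 0.00304) and was at -0.20 in 67NR medium (adjusted p = 0.129).

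Protein levels of p27, p21 and the D-type cyclins are set largely by ubiquitin ligases, whose parts were followed as a list of 15 genes. In 4T1 medium 2 were higher and 7 lower, and in 67NR medium 1 was higher and 4 were lower, relative to control medium. Skp2, which marks p27 for breakdown, had 19.6 ± 1.92 CPM in 4T1 medium, 15.3 ± 1.31 CPM in 67NR medium and 23.3 ± 0.413 CPM in control medium. It fell by 0.60 in 67NR medium (edgeR adjusted p = 0.000898) and was at -0.24 in 4T1 medium (adjusted p = 0.0823). Cks1b, the cofactor of Skp2, fell by 0.55 in 4T1 medium (adjusted p = 0.000688) and by 0.62 in 67NR medium (adjusted p = 0.000376). Dtl, which directs p21 breakdown during replication, fell by 1.07 in 67NR medium (adjusted p = 8.85e-05), and Ddb1, its partner, fell by 0.61 in 4T1 medium (adjusted p = 7.44e-06). Proteins were not measured.

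Of 23 tested genes of p53 and its targets other than Cdkn1a, 7 were higher and 5 lower in 4T1 medium (median 0.02), and 4 were higher and 11 lower in 67NR medium (median -0.20). Gadd45a, a damage and stress gene, rose by 2.53 in 4T1 medium (edgeR adjusted p = 2.23e-08), with 112 ± 28.3 CPM there, 16.8 ± 1.26 CPM in 67NR medium and 19.3 ± 0.171 CPM in control medium. Fas, a death receptor, rose by 1.24 in 4T1 medium (adjusted p = 1.17e-08). Sesn1, a stress-responsive inhibitor of mTORC1, went the other way: it fell by 1.06 in 4T1 medium (adjusted p = 1.35e-07) and rose by 0.48 in 67NR medium (adjusted p = 0.000163). Gtse1 was among the genes lower in 67NR medium, where it fell by 1.73 (edgeR adjusted p = 4.59e-07). Trp53 itself rose by 0.24 in 4T1 medium (adjusted p = 0.0172) and fell by 0.29 in 67NR medium (adjusted p = 0.00838). The members of this list thus moved in both directions in 4T1 medium, where Cdkn1a was higher.

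Of 11 tested genes of the MYC network, 3 were higher and 5 lower in 4T1 medium, and 3 were higher and 2 lower in 67NR medium. Myc, which is known to repress Cdkn1a, Cdkn1b and Cdkn2b and to raise Ccnd2 and Cdk4, had 150 ± 9.31 CPM in 4T1 medium, 56.9 ± 0.0315 CPM in 67NR medium and 81.1 ± 3.38 CPM in control medium. It rose by 0.88 in 4T1 medium (edgeR adjusted p = 5.6e-07) and fell by 0.51 in 67NR medium (adjusted p = 0.000193). Mxd4, a partner of MAX that opposes MYC, fell by 0.66 in 4T1 medium (adjusted p = 8.79e-06) and rose by 0.51 in 67NR medium (adjusted p = 0.000115). Mycl, another MYC family gene, fell by 1.27 in 4T1 medium (adjusted p = 1.13e-05) and rose by 1.24 in 67NR medium (adjusted p = 2.81e-06).

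Of 12 FOXO, KLF and SMAD factors, 4 were higher and 2 lower in 4T1 medium, and 4 were higher and 1 lower in 67NR medium. Klf4, known as an activator of Cdkn1a, had 170 ± 4.33 CPM in 4T1 medium, 72.9 ± 2.2 CPM in 67NR medium and 100 ± 3.34 CPM in control medium. It rose by 0.76 in 4T1 medium (edgeR adjusted p = 1.12e-06) and fell by 0.46 in 67NR medium (adjusted p = 0.000235). Egr1, an immediate early factor that answers growth signals, rose by 0.78 in 4T1 medium (adjusted p = 8.02e-06) and by 0.77 in 67NR medium (adjusted p = 1.7e-05). Klf2, known from resting T cells, fell by 1.24 in 4T1 medium (adjusted p = 1.1e-07) and rose by 0.34 in 67NR medium (adjusted p = 0.00418).

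Polycomb proteins silence the Cdkn2a and Cdkn2b locus in dividing cells. Of 15 Polycomb genes, 4 were higher and 3 lower in 4T1 medium, with a median of 0.09, against 19.9% and 19.2% of all genes. In 67NR medium 3 were higher and 3 lower, with a median of 0.10, against 13% and 14.6% of all genes. In 67NR medium 1 was higher without 67NR replicate 1 or without control replicate 1, and 1 was lower without 67NR replicate 1. Kdm6b, a demethylase that removes the Polycomb mark, rose by 0.53 in 4T1 medium (edgeR adjusted p = 4.85e-05). Ezh2, the methyltransferase, whose gene is also active in proliferating cells, fell by 0.73 in 67NR medium (adjusted p = 1.7e-05).

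Of 15 tested genes of the senescence secretome and lamina, 8 were higher and 4 lower in 4T1 medium, and 2 were higher and 7 lower in 67NR medium. In 67NR medium the 7 lower became 4 without 67NR replicate 2, and the 2 higher became 1 without control replicate 2. The genes that were higher in 4T1 medium were led by inflammatory mediators: Cxcl5 rose by 6.06 (edgeR adjusted p = 4.99e-11), Il6 by 5.33 (adjusted p = 1.69e-11) and Cxcl1 by 2.45 (adjusted p = 2.52e-11). Hmgb2, a chromatin protein of cycling cells, fell by 1.39 in 67NR medium (adjusted p = 3.92e-07). The inhibitors known from senescent fibroblasts moved in both directions in the medium where these mediators were higher. Cdkn2a and Cdkn2b were lower there, by 0.64 and 0.61 on the log2 scale, and Cdkn1a was higher, by 0.34. A link between these changes was not tested.

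All 12 quiescence genes passed in 4T1 medium, 7 higher and 5 lower, and in 67NR medium 6 were higher and 0 lower. The 5 lower became 3 without control replicate 2, and the 0 lower in 67NR medium became 1 without either 4T1 library. Gas1, a growth arrest gene of the membrane, had 172 ± 3.92 CPM in 4T1 medium, 224 ± 0.368 CPM in 67NR medium and 109 ± 5.86 CPM in control medium, and it rose by 1.05 in 67NR medium (edgeR adjusted p = 1.76e-07). Gas6, a ligand of the TAM receptors, rose by 1.05 in 67NR medium (adjusted p = 2.97e-07), and Gas7 rose by 1.60 in 67NR medium (adjusted p = 3.66e-06) and by 1.52 in 4T1 medium (adjusted p = 3.08e-06). Btg1, an antiproliferative gene, rose by 1.15 in 4T1 medium (adjusted p = 4.62e-08). Gas2 went the other way there and fell by 1.39 (adjusted p = 4.01e-09), and 4T1 over 67NR medium gave -1.24 (adjusted p = 1.05e-08). Dyrk1b, a kinase that stabilises p27 and promotes the breakdown of cyclin D1, had 10.3 ± 0.226 CPM in 4T1 medium, 20.1 ± 0.23 CPM in 67NR medium and 16.3 ± 1.06 CPM in control medium. Its log2 fold change of 4T1 over 67NR medium was -0.96 (adjusted p = 7.22e-06).

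For each gene called in any comparison, the genes with the most similar course over the 6 libraries were sought among those with at least 10 CPM on average, by the root mean square difference of centred log2 CPM. Cdkn1b had Map3k1, a kinase upstream of JNK, at 0.0584 and Rab3d, a small GTPase of secretory vesicles, at 0.0839, and 8 genes lay within 0.1 of it. Ccnd1 had 23 genes within 0.1, the nearest being Polh, a DNA polymerase that copies damaged template, at 0.0467 and Gm14150 at 0.047. Cdkn2a had 30, led by Ddah2 at 0.0314 and Agfg2 at 0.04, and Ccnd3 had 45, led by Ipmk at 0.0526 and Ripk2, a kinase of innate immune signalling, at 0.0538. More common courses were those of Cdkn2c, with 79 genes (Cited2 at 0.0279, Pls3 at 0.0321), of Cdkn2d, with 110 (Ivns1abp at 0.0282, Sac3d1 at 0.0383), and of Cdkn2b, with 130 (St3gal5 at 0.0364, Pccb at 0.0391). Ccnd2 had 202 (Col4a3bp at 0.0277, Sec23a at 0.0298), and Cdkn1a had 633 (Sptlc2 at 0.0242, Ccni at 0.0249). With 6 libraries, likeness describes these samples alone.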

How the data were processed

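Raw counts by gene symbol, as whole numbers, were deposited by the authors for 6 poly(A), directional libraries made from 500 ng of RNA, per the labels' protocols. Per the submitters' processing notes, Subread counted reads on mm10 and DESeq2 1.32.0 was used; whether counting used strand is not stated, which leaves overlapping genes uncertain. The unfiltered table was used; the filtered one holds 14629 genes with the same values and 9 of the 10 genes described. Positions and exon lengths come from GENCODE M21 (GRCm38).

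The 15055 genes that passed edgeR's filterByExpr (version 4.0.16, at least 10 counts and 15 in total) were scaled by TMM and fitted by quasi-likelihood with medium as the only term (3 residual and 9.62 prior degrees of freedom, biological coefficient of variation 5.81%). Benjamini-Hochberg adjustment ran over all tested genes. CPM uses TMM-scaled totals of tested genes, where 1 count stands for 0.0463 to 0.0743 CPM, a limit set by depth. Standard errors were derived from each log2 fold change and its F statistic, as their ratio after taking the root of F. Intervals are 95%.

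The genes and lists were chosen with earlier results of these data known, the fall of cell cycle genes among them. Beside the 10 genes, up to 3 per list and comparison were named, namely the called ones of largest change whose higher medium reached 10 CPM; Cdk4, Cdk6, Rb1, E2f1, Trp53, Bysl, LTO1 and Skp2 in 4T1 medium fall outside this rule.

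Alternatives were DESeq2 size factors, library totals, no filter, the filtered table's genes, a filter of 10 counts in each library of a medium, a replicate block, each library left out, the 2 media alone, limma-voom (3.58.1), the DESeq2 1.42.0 Wald test, equal depth and a minimum of 1.5-fold. Code was tested on simulated counts. R 4.3.3, Python 3.11.15 and matplotlib 3.10.9 were used.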

Additional observations from a re-analysis of the deposited data

How the results depend on the processing

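The 9 tested genes gave 27 log2 fold changes, each refitted under 17 alternatives, 459 refits in all, of which 411 kept direction and side of the threshold, 35 lost a call, 8 gained one and 5 changed sign. The sign changes were all of values without a call: Cdkn2d in 4T1 over control medium without control replicate 2 (0.00, and -0.12 to 0.00 over the libraries left out), Cdkn1a in 67NR over control medium without control replicate 1 (-0.05, range to 0.08) and at equal depth (-0.01), Cdkn2b in 67NR over control medium without control replicate 1 (-0.00), and Ccnd1 in 4T1 over 67NR medium without 4T1 replicate 1 (0.06, range from -0.25). Against a minimum of 1.5-fold, 0 of the 9 were higher and 0 lower in 4T1 and in 67NR over control medium, and 1 was higher and 1 lower in 4T1 over 67NR medium. Over all genes that minimum left 805 higher and 620 lower for 4T1 over control, 300 and 323 for 67NR over control, and 915 and 788 for 4T1 over 67NR medium, because it tests against a larger change. In 4T1 over control medium it left 13 of the 28 mitosis genes and 10 of the 30 S phase genes called lower. The 4 genes called lower in 67NR over control medium became 2 with DESeq2 size factors, with the DESeq2 Wald test and without any 1 library of these media, and ranged from 2 to 5 over the libraries left out; the cause was not tested.

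Leaving out 1 library in turn, called genes ranged from 1895 to 3030 higher and 2072 to 2970 lower for 4T1 over control medium, from 1032 to 2541 higher and 1175 to 2820 lower for 67NR over control medium, and from 2527 to 3544 higher and 2158 to 3074 lower for 4T1 over 67NR medium. Of the 9 genes, 2 stayed higher and 5 to 6 lower for 4T1 over control medium, 1 higher for 67NR over control medium, and 3 higher and 5 to 6 lower for 4T1 over 67NR medium. Counts of the mitosis, S phase, Polycomb, senescence and quiescence lists were refitted too, and the report gives those of the comparisons with control medium that a library left out moved by over 1.5 times. Those of the other lists were refitted as well, and how far they moved is not given here. A lone remaining library was assumed to vary like the others.

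Differences of replicate 1 from replicate 2 correlated little across genes between media. The correlations were 0.00508 for 4T1 and control, -0.0406 for 67NR and control and 0.0685 for 4T1 and 67NR medium. Such values cannot tell whether libraries of the same number were paired or shared a batch, which the labels do not state. With the replicate block, Cdkn2c in 67NR over control medium had an edgeR adjusted p of 0.0502 (log2 fold change -0.22) and Ccnd2 in the same comparison 0.0211 (-0.19); no other call of the 9 genes changed. Cdkn1c was left out of every fit that filters low counts. With 2 libraries a medium, small changes and genes of few counts are the least certain.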
